A study of Mus musculus with 24 samples.

Results

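Tuft cells are a rare chemosensory lineage of the intestinal epithelium, and 9 genes known for that lineage in mouse were followed here out of the 36528 genes in the files. The 9 genes, taken as a list of symbols, were Pou2f3, Gfi1b, Dclk1, Trpm5, Avil, Sh2d6, Ptgs1, Alox5 and Il25. All 9 were found by their Entrez gene identifiers, and 8 of them had enough reads for a test among 15429 tested genes, Il25 being the exception. The data came from 24 sequencing libraries of polyadenylated RNA from primary organoids of mouse small intestine, which are cultures of intestinal epithelium. The libraries formed 6 groups of 4, namely dFz7-21 at 24 h and at 6 h, Fz7-21S at 24 h and at 6 h, and DMSO at 24 h and at 6 h. dFz7-21 is a peptide that blocks Frizzled 7, a receptor for Wnt ligands, and DMSO is the solvent control. The labels name Fz7-21S without describing it, and they give no dose, mouse strain, genotype or culture medium for any group. They do not state whether replicates came from different mice or dishes, so each p-value reflects the spread between libraries, which could be technical.

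Tuft cells carry parts of the taste transduction cascade, sense succinate and parasites, and signal through lipid mediators, acetylcholine and the cytokine IL-25. POU2F3 is the transcription factor without which mice lack the lineage. New tuft cells arise from crypt stem cells, whose maintenance depends on Wnt signals. In bulk RNA, fewer tuft cells and less RNA per tuft cell cannot be told apart.

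Libraries held 20.4 M to 33.1 M counts (median 25.1 M). A count of 3 corresponded to 0.0891 to 0.145 TMM-normalised CPM, the usual scale of counts relative to library size, which serves as the detection floor and covers counting error only. Lgr5, the stem cell receptor, averaged 3.83 CPM with dFz7-21 and 97.1 CPM with DMSO at 24 h. Transcripts of mesenchymal cells were abundant in 3 libraries, namely dFz7-21 24 h replicate 3 and DMSO 6 h replicates 1 and 2. A list of 10 mesenchymal genes summed to 173 to 1024 CPM in these 3 libraries and to 4.95 to 14.6 CPM in the other 21. A further 2 libraries were set apart at 24 h after their values were seen, by very different margins. Fz7-21S 24 h replicate 4 differed from the other libraries of its group by a chi-square per degree of freedom of 69.6 to 88.9, against 3.50 to 8.76 among those 3. DMSO 24 h replicate 2 differed from its group by 6.67 to 7.88, against 5.91 to 6.40 among the other 3, a narrow margin. For comparison, dFz7-21 24 h replicate 3 differed from its group by 14.5 to 16.8, against 4.34 to 4.92 among the other 3, and pairs with DMSO 6 h replicate 1 or 2 reached 12.7. A list of 18 immune genes summed to 6.48 to 12.8 CPM over all libraries, and to 2.36 to 5.68 CPM without Itgam. That gene was the largest single part, with a mean of 4.72 CPM. It exceeded the sum of the other 17 at 24 h with dFz7-21 and DMSO, and was below that sum at 6 h in each treatment. The T cell gene Cd3d and the mast cell gene Cpa3 had no read.

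Start-site windows of 250 bases before and 50 bases after the annotated start were available from RefSeq (GRCm38.p6) for 7 of the 9 genes, as 8 windows. Pou2f3 and Il25 had no window, so their start sites were not searched. Windows are shown for Avil and Dclk1 because they were the ones with a match to a searched motif, and because Dclk1 has a pair of starts that the counts add together. The motifs, each searched on both strands, were the octamer ATGCAAAT recognised by POU factors, its first 7 letters ATGCAAA, and CTTTGAT, the core recognised by the TCF/LEF factors of the Wnt pathway. Capitals mark the matches. The Avil window is chr10:127000459-127000758, plus strand, and the Dclk1 windows are chr3:55242114-55242413 and chr3:55461478-55461777, plus strand, 219364 bases apart.
Avil: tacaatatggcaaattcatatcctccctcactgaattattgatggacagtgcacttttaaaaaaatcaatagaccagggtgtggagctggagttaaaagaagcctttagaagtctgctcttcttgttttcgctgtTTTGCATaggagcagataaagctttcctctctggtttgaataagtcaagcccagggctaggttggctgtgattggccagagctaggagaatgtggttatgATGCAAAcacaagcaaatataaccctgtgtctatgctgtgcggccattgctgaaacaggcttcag
Dclk1 upstream start: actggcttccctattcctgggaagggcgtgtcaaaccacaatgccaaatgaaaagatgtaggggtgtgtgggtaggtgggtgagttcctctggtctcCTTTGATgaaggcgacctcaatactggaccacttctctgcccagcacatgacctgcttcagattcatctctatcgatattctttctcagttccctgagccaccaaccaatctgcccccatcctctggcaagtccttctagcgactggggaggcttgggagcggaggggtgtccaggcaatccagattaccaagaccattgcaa
Dclk1 downstream start: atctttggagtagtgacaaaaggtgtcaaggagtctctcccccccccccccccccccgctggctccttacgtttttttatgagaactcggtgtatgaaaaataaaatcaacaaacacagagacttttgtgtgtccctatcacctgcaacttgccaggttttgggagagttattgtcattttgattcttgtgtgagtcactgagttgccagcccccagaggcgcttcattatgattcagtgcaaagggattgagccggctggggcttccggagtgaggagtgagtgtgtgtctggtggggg
The whole octamer was in 1.74% of 32851 windows of all genes and in 0 of the 8 windows. The shorter form, which the octamer contains, was in 4.63% of all windows and in 1 of the 8, the Avil window, with matches starting 15 and 115 bases before the start site. CTTTGAT was in 3.73% of all windows and in 1 of the 8, the upstream Dclk1 window, starting 153 bases before the start site. These are letter matches within short windows and say nothing of binding.

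The transcripts were scarce but most were countable. Dclk1, a doublecortin-like kinase used as a tuft cell marker (chromosome 3, 55242303 to 55539068, GRCm38.p6), had 56 to 314 reads per library. Trpm5, the cation channel of taste transduction (chromosome 7, 143071529 to 143094642), had 111 to 260, and Avil, the actin-binding protein advillin (chromosome 10, 127000065 to 127020994), had 92 to 262. Pou2f3 (chromosome 9, 43123927 to 43205755) had 64 to 257. These 4 defining genes were therefore above the floor in all 24 libraries. Ptgs1, which encodes cyclooxygenase 1 (chromosome 2, 36216742 to 36258593), had 21 to 135 reads, and Sh2d6, an SH2 domain protein (chromosome 6, 72513641 to 72534206), had 16 to 50. Alox5, which encodes the 5-lipoxygenase of leukotriene synthesis (chromosome 6, 116410071 to 116461178), had 2 to 36 reads, with 3 libraries at the floor or below it. Gfi1b, a zinc finger transcription factor (chromosome 2, 28609450 to 28621982), had 1 to 13 reads, with 5 libraries at the floor or below it. Il25 (chromosome 14, 54932695 to 54935837) had 30 reads over all libraries, and 22 libraries were at the floor or below it. Each value belongs to a whole gene model, exons and untranslated regions together.

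Per gene length, on the authors' size-factor-adjusted RPKM scale, the mean level over 24 libraries was highest for Pou2f3 at 2.32, before Avil at 1.71 and Trpm5 at 1.52. Sh2d6 at 0.860, Dclk1 at 0.604 and Ptgs1 at 0.461 followed, and Alox5 at 0.153, Gfi1b at 0.144 and Il25 at 0.0284 were lowest. This order did not hold in every group. With dFz7-21 at 24 h, Pou2f3 averaged 1.28, below Avil at 1.57 and Trpm5 at 1.33. Avil was above Pou2f3 in 4 of 4 dFz7-21 libraries at 24 h, in 1 of 4 dFz7-21 libraries at 6 h and in 0 of the other 16. Over all libraries, Pou2f3 was above Avil in 19 of 24, Avil above Trpm5 in 18, Trpm5 above Sh2d6 in 23, Sh2d6 above Dclk1 in 19, Dclk1 above Ptgs1 in 15 and Ptgs1 above Alox5 in 22. Alox5 was above Gfi1b in 11 of 24, so their order could not be set at this depth. Gfi1b was above Il25 in 22 of 24.

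**Figure D1:**
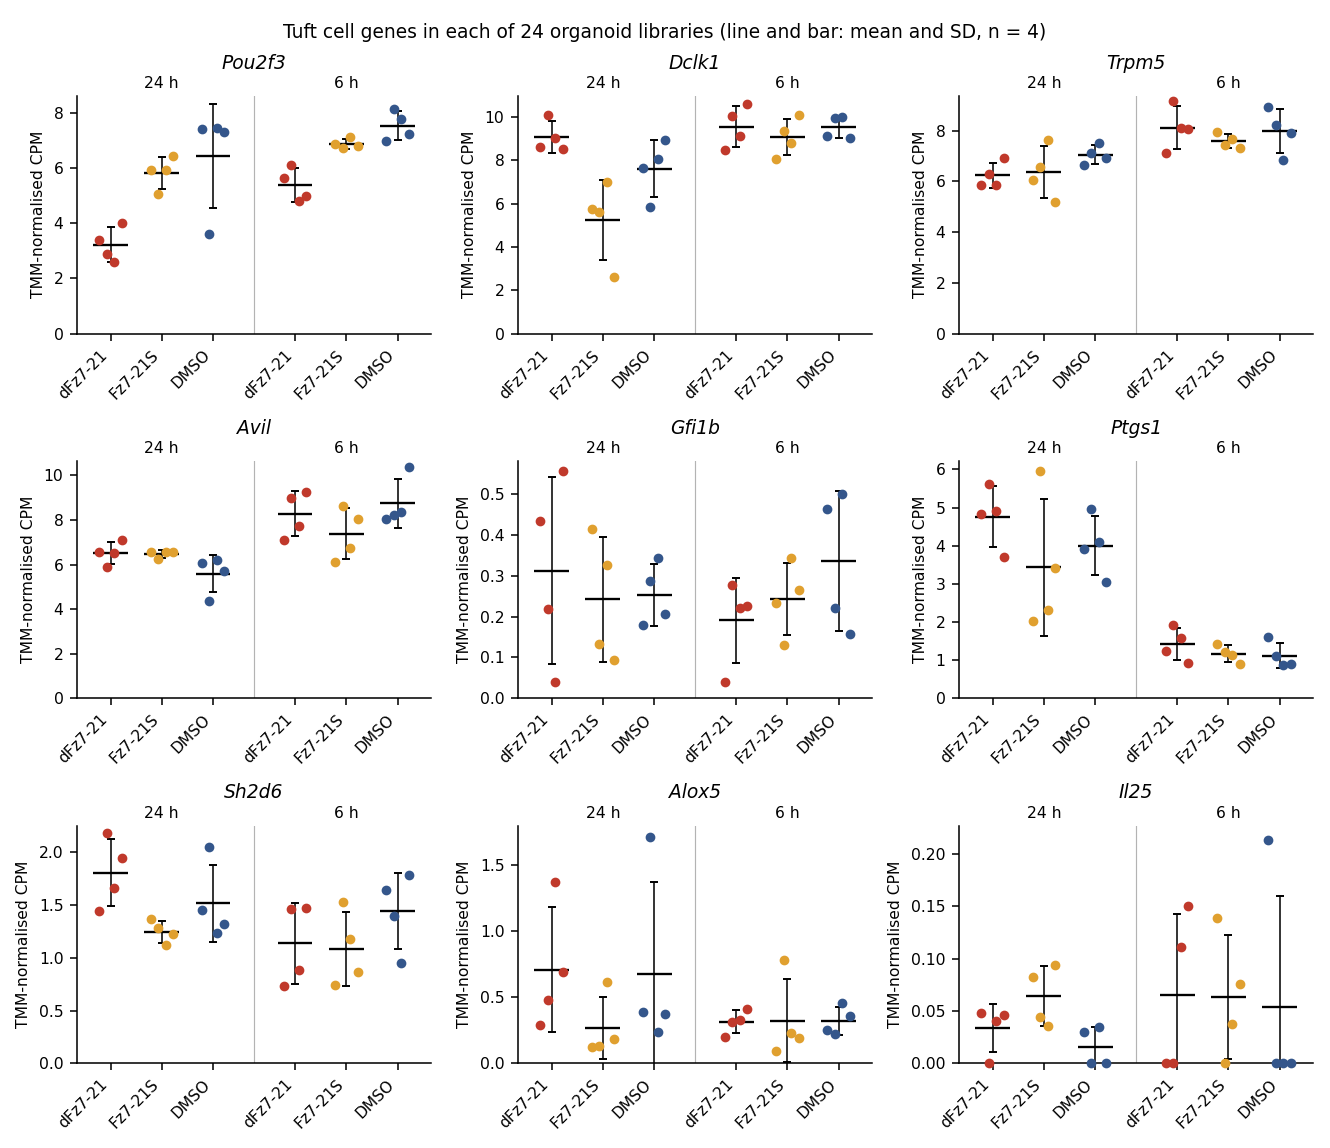
Level of each of the 9 tuft cell genes (vertical axis, TMM-normalised CPM from 0) in every library, with 24 h on the left and 6 h on the right and points for dFz7-21 (red), Fz7-21S (yellow) and DMSO (blue). Lines and bars are the mean and SD of 4 libraries (bars end at 0), and the dFz7-21 libraries at 24 h lie at 2.59 to 4.02 CPM for Pou2f3.

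After 24 h with dFz7-21, the lineage regulator Pou2f3 was lower than with either other treatment, while none of Dclk1, Trpm5 and Avil passed the test as lower. Pou2f3 stood at 3.38, 2.87, 2.59 and 4.02 CPM in the 4 dFz7-21 libraries, at 5.93, 5.04, 5.93 and 6.43 CPM with Fz7-21S, and at 7.43, 3.62, 7.43 and 7.29 CPM with DMSO. All dFz7-21 libraries were below all Fz7-21S libraries, as in 12.5% of tested genes in this direction. A single DMSO library, replicate 2 with 76 reads, reached into the dFz7-21 range. The log2 fold change against DMSO was -1.01 ± 0.17 (SE, edgeR quasi-likelihood test, adjusted p = 5.37e-05), or 2.02-fold lower. Against Fz7-21S it was -0.86 ± 0.17 (edgeR, adjusted p = 0.000434), or 1.82-fold lower. Both comparisons use the same dFz7-21 libraries. Without DMSO 24 h replicate 2 the value against DMSO was -1.20, and without the 3 mesenchymal libraries it was -0.93 (edgeR, adjusted p = 0.000665). Of the 8 tested genes, Pou2f3 was the 1 called against DMSO at 24 h, while 35.9% of all tested genes were called. Against Fz7-21S at 24 h, 2 of 8 were called, Pou2f3 lower and Dclk1 higher, beside 33.7% of all tested genes. Neither count was above the share of all genes.

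Markers of other cell types moved in the same libraries. The list of 6 stem cell genes summed to 250 to 372 CPM with dFz7-21, to 2044 to 2332 CPM with Fz7-21S and to 2055 to 2756 CPM with DMSO at 24 h, and all 6 fell, beside 17.7% of all tested genes called lower and 18.2% higher. The list of 8 goblet cell genes summed to 2675 to 3195 CPM with dFz7-21, to 2172 to 2661 CPM with Fz7-21S and to 2050 to 2247 CPM with DMSO, and against DMSO 5 were called higher and 1 lower. The list of 10 enteroendocrine genes summed to 326 to 379 CPM with dFz7-21, to 315 to 451 CPM with Fz7-21S and to 284 to 313 CPM with DMSO, and against DMSO 5 were higher and 2 lower. The enteroendocrine sums of dFz7-21 and Fz7-21S overlapped. Their part in the Pou2f3 value was not tested. The 9 tuft cell genes together summed to 31.5 to 33.7 CPM with dFz7-21, to 25.9 to 31.5 CPM with Fz7-21S and to 29.99 to 35.1 CPM with DMSO at 24 h, so the sums of dFz7-21 and DMSO overlapped.

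Dclk1 differed at 24 h from Fz7-21S and not detectably from DMSO. It stood at 8.63, 10.1, 9.03 and 8.50 CPM with dFz7-21, at 5.76, 5.61, 6.98 and 2.63 CPM with Fz7-21S, and at 7.64, 5.86, 8.05 and 8.94 CPM with DMSO. The dFz7-21 libraries were all above the Fz7-21S libraries, as in 13.4% of tested genes in this direction, and overlapped those with DMSO. The lowest value was that of Fz7-21S replicate 4, 1 of the libraries that stood apart. The log2 fold change was 0.78 ± 0.18 against Fz7-21S (edgeR, adjusted p = 0.00138) and 0.25 ± 0.17 against DMSO (edgeR, adjusted p = 0.281, 95% interval -0.11 to 0.60). Without Fz7-21S 24 h replicate 4 the value against Fz7-21S was 0.59 (edgeR, adjusted p = 0.00042). When the fit held only the 8 libraries compared, it was 0.77 and no longer passed (edgeR, adjusted p = 0.0605). Fz7-21S against DMSO gave -0.53 ± 0.18 (edgeR, adjusted p = 0.162) for Dclk1.

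Trpm5 and Avil bounded what could have been missed. Trpm5 stood at 5.88, 6.32, 5.87 and 6.93 CPM with dFz7-21, at 6.05, 6.59, 7.63 and 5.21 CPM with Fz7-21S and at 6.66, 7.14, 7.53 and 6.92 CPM with DMSO at 24 h. The groups overlapped, and the interval of the log2 fold change against DMSO ran from -0.40 to 0.05. Avil stood at 6.56, 5.88, 6.52 and 7.12 CPM with dFz7-21, at 6.55, 6.23, 6.55 and 6.57 CPM with Fz7-21S and at 6.09, 4.38, 6.19 and 5.73 CPM with DMSO. The dFz7-21 libraries overlapped both other groups, with an interval against DMSO from -0.05 to 0.48.

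The enzymes and the remaining genes were not called at 24 h in either comparison with dFz7-21. Ptgs1 averaged 4.76 ± 0.79 CPM with dFz7-21, 3.43 ± 1.79 CPM with Fz7-21S and 4.003 ± 0.78 CPM with DMSO (SD, n = 4). Without Fz7-21S 24 h replicate 2, the library with 135 Ptgs1 reads, Ptgs1 passed against Fz7-21S (log2 fold change 0.91, edgeR adjusted p = 0.00763), against 0.48 with all libraries (edgeR, adjusted p = 0.181). Sh2d6 averaged 1.81 ± 0.32 CPM with dFz7-21, 1.25 ± 0.10 CPM with Fz7-21S and 1.51 ± 0.37 CPM with DMSO. Its dFz7-21 libraries were all above those with Fz7-21S, which was so in the same direction for 13.4% of tested genes, with a log2 fold change of 0.53 ± 0.26 (edgeR, adjusted p = 0.12).

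Alox5 rested on single libraries. It had 6, 11, 34 and 15 reads with dFz7-21, 3, 3, 17 and 4 reads with Fz7-21S and 13, 36, 7 and 9 reads with DMSO at 24 h. The highest counts were in dFz7-21 replicate 3, a library with mesenchymal transcripts, and in DMSO replicate 2, a library that stood apart. The log2 fold change against DMSO was 0.14 ± 0.59, -0.37 without dFz7-21 24 h replicate 3 and 1.09 without DMSO 24 h replicate 2, and none of these passed. Against Fz7-21S the value of Alox5 was 1.37 ± 0.65 (edgeR, adjusted p = 0.11), and it passed without Fz7-21S 24 h replicate 3, at 2.26 (edgeR, adjusted p = 0.0238).

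Gfi1b and Il25 were too scarce for a direction at 24 h. Gfi1b had 27 reads over the 4 dFz7-21 libraries, 24 with Fz7-21S and 27 with DMSO, with exact 95% Poisson intervals of 17.8 to 39.3 reads for dFz7-21 and for DMSO and 15.4 to 35.7 reads for Fz7-21S. Il25, the cytokine that tuft cells release to innate lymphoid cells, had 3 reads with dFz7-21 (interval 0.619 to 8.77), 6 with Fz7-21S (2.20 to 13.1) and 2 with DMSO (0.242 to 7.22). The intervals overlapped. Both sets of intervals cover counting error only and, like all read sums given here, are not scaled to depth. On the scaled level Gfi1b averaged 0.312 CPM with dFz7-21, 0.242 CPM with Fz7-21S and 0.253 CPM with DMSO. In a fit without the filter on low counts, Il25 had a lowest unadjusted p of 0.236 over 10 comparisons (edgeR, adjusted p = 0.458 or higher).

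**Figure D2:**
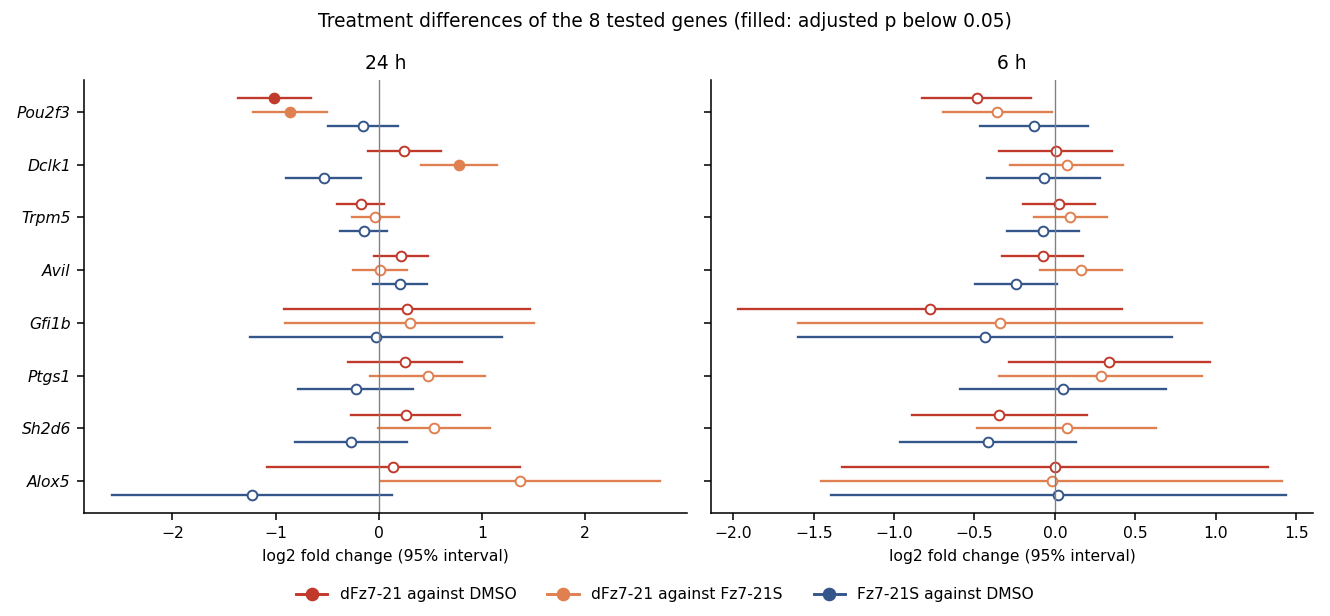
Log2 fold changes (horizontal axis, point and 95% interval, edgeR) of the 8 tested tuft cell genes at 24 h (left) and 6 h (right) for dFz7-21 against DMSO (red), dFz7-21 against Fz7-21S (orange) and Fz7-21S against DMSO (blue). Filled points passed an adjusted p of 0.05, which were Pou2f3 at -1.01 and -0.86 and Dclk1 at 0.78, all at 24 h.

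At 6 h no tuft cell gene passed against DMSO, but Pou2f3 already stood below both other treatments in all libraries. Pou2f3 was at 5.62, 6.11, 4.80 and 4.97 CPM with dFz7-21, at 6.87, 6.72, 7.14 and 6.80 CPM with Fz7-21S and at 6.98, 8.15, 7.76 and 7.23 CPM with DMSO. The dFz7-21 libraries did not overlap either group, a pattern that 10.8% of tested genes showed in this direction against DMSO and 10.5% against Fz7-21S. The log2 fold change of Pou2f3 at 6 h was -0.49 ± 0.16 against DMSO (edgeR, adjusted p = 0.0573) and -0.36 ± 0.17 against Fz7-21S (edgeR, adjusted p = 0.246). In a fit of only the 8 libraries compared, both passed, with adjusted p of 0.00233 and 0.0173 (edgeR), and both passed without the 2 libraries that stood apart at 24 h, with adjusted p of 0.00216 and 0.0347. With DESeq2 the difference from DMSO passed (adjusted p = 0.0293). Without the 3 mesenchymal libraries the difference from DMSO did not pass (edgeR, adjusted p = 0.215). Of 15 alternatives, 3 gave a call against DMSO, and 2 of 15 gave a call against Fz7-21S. The calls at 6 h were 0 of 8 against DMSO, beside 11.0% of all tested genes, and 0 of 8 against Fz7-21S, beside 7.04%. At an unadjusted p under 0.05, 1 of 8 passed in each, Pou2f3, beside 3592 of 15429 tested genes against DMSO and 2803 against Fz7-21S. DESeq2 called 1 of the 8 against DMSO and 0 against Fz7-21S.

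No other tuft cell gene passed at 6 h, and the precision differed between them. Dclk1 averaged 9.56 ± 0.93 CPM with dFz7-21, 9.08 ± 0.85 CPM with Fz7-21S and 9.53 ± 0.52 CPM with DMSO (SD, n = 4), with a 95% interval of the log2 fold change against DMSO from -0.35 to 0.35. Trpm5 averaged 8.12 ± 0.84 CPM with dFz7-21, 7.60 ± 0.26 CPM with Fz7-21S and 7.98 ± 0.87 CPM with DMSO, with an interval against DMSO from -0.20 to 0.25. Avil averaged 8.28 ± 1.01 CPM with dFz7-21, 7.39 ± 1.15 CPM with Fz7-21S and 8.74 ± 1.08 CPM with DMSO, with an interval against DMSO from -0.33 to 0.18. Il25 had 7 reads with dFz7-21 (Poisson interval 2.81 to 14.4), 6 with Fz7-21S (2.20 to 13.1) and 6 with DMSO (2.20 to 13.1) at 6 h, and all 6 of the DMSO reads came from replicate 1, a library with mesenchymal transcripts. Gfi1b had 20 reads with dFz7-21 (exact 95% Poisson interval 12.2 to 30.9), 24 with Fz7-21S (15.4 to 35.7) and 36 with DMSO (25.2 to 49.8), and the interval of its log2 fold change against DMSO, from -1.97 to 0.41, was wide. Ptgs1 averaged 1.43 ± 0.43 CPM with dFz7-21, 1.18 ± 0.22 CPM with Fz7-21S and 1.12 ± 0.34 CPM with DMSO, with an interval against DMSO from -0.29 to 0.96. Sh2d6 averaged 1.14 ± 0.38 CPM with dFz7-21, 1.08 ± 0.35 CPM with Fz7-21S and 1.44 ± 0.36 CPM with DMSO, with an interval against DMSO from -0.89 to 0.20. Alox5 had 33 reads with dFz7-21 (Poisson interval 22.7 to 46.3), 31 with Fz7-21S (21.1 to 44.0) and 34 with DMSO (23.5 to 47.5), and the interval of its log2 fold change against DMSO ran from -1.32 to 1.33.

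The log2 difference of dFz7-21 from DMSO in Pou2f3 at 24 h minus that at 6 h was -0.53 ± 0.24, which did not pass (edgeR interaction term, adjusted p = 0.16). Without DMSO 24 h replicate 2 it was -0.72 and passed (edgeR, adjusted p = 0.00727), so 1 library, which its chi-square set only narrowly apart, decided the call. None of the 8 tested genes passed the interaction, beside 13.2% of all tested genes, 7.37% higher and 5.78% lower. Pou2f3 was the 1 gene of the 8 with an unadjusted p under 0.05, beside 3916 of 15429 tested genes. DESeq2 called 0 of the 8.

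Fz7-21S and DMSO did not differ detectably in any tuft cell gene. At 24 h 0 of 8 passed, beside 0.259% of all tested genes, and 0 were called by DESeq2. An unadjusted p under 0.05 was seen there for 1 of the 8, Dclk1, beside 3673 of 15429 tested genes. At 6 h 0 of 8 passed, beside 0.00648% of all tested genes, and 0 were called by DESeq2. An unadjusted p under 0.05 was seen at 6 h for 0 of the 8, beside 614 of 15429 tested genes. Avil was the 1 gene of the 8 whose Fz7-21S and DMSO libraries did not overlap at 24 h, with Fz7-21S higher, as in 2.74% of tested genes, and 0 of the 8 were lower without overlap, beside 2.52%. At 6 h there was no such gene in either direction, beside 3.08% and 1.52%. For Pou2f3 the 95% interval of the log2 fold change of Fz7-21S against DMSO ran from -0.49 to 0.19 at 24 h and from -0.47 to 0.21 at 6 h.

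Ratios of raw reads within each library, which need no scaling between libraries, show Pou2f3 beside the other tuft cell genes. They restate the values above on another scale and are a description with no test, since Pou2f3 was put on top after it was seen to be low with dFz7-21. They used the 4 genes with at least 50 reads in every library. The ratio of Pou2f3 to Dclk1 reads at 24 h ran from 0.284 to 0.473 with dFz7-21, from 0.850 to 2.45 with Fz7-21S and from 0.618 to 0.973 with DMSO, without overlap between dFz7-21 and either. At 6 h it ran from 0.470 to 0.662 with dFz7-21, from 0.674 to 0.851 with Fz7-21S and from 0.766 to 0.818 with DMSO, again without overlap between dFz7-21 and either. The Fz7-21S and DMSO ranges overlapped at both times. The mean log2 ratio with dFz7-21 differed by -1.23 from DMSO and by -1.75 from Fz7-21S at 24 h, and by -0.49 from DMSO and by -0.44 from Fz7-21S at 6 h.

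The ratios to Trpm5 and Avil overlapped in part. Pou2f3 to Trpm5 ran from 0.441 to 0.580 with dFz7-21, from 0.765 to 1.23 with Fz7-21S and from 0.507 to 1.12 with DMSO at 24 h, the DMSO range reaching down through replicate 2. Pou2f3 to Avil ran from 0.398 to 0.565 with dFz7-21, from 0.809 to 0.979 with Fz7-21S and from 0.826 to 1.27 with DMSO at 24 h, without overlap between dFz7-21 and either.

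**Figure D3:**
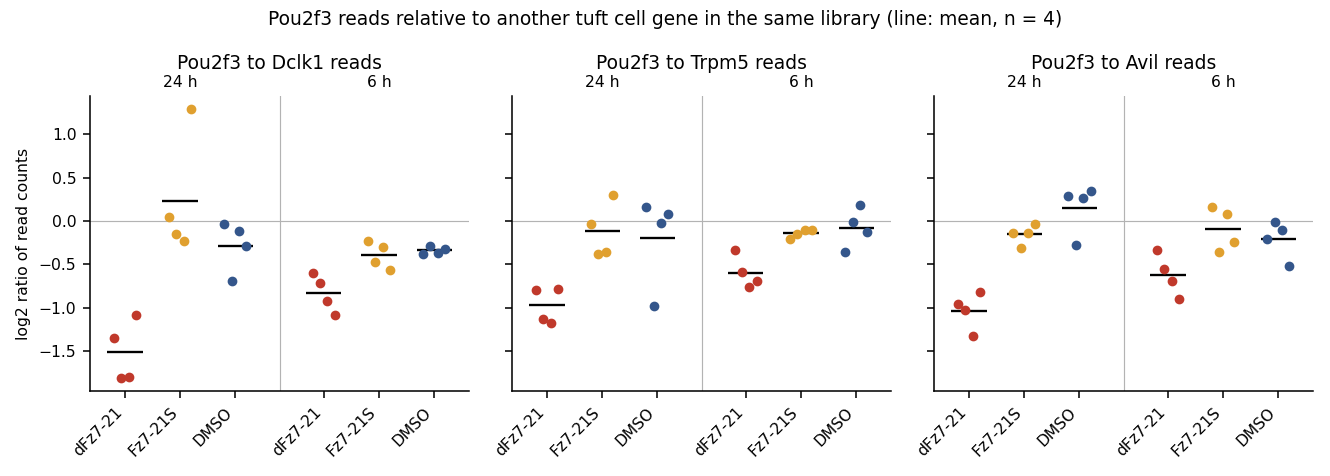
Log2 ratio of Pou2f3 reads to Dclk1, Trpm5 and Avil reads (vertical axis) in each library, with 24 h on the left and 6 h on the right of each panel and points for dFz7-21 (red), Fz7-21S (yellow) and DMSO (blue). Black lines are means of 4 libraries, and the mean log2 ratio of Pou2f3 to Dclk1 at 24 h is -1.51 with dFz7-21, 0.24 with Fz7-21S and -0.29 with DMSO.

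Ptgs1 was the 1 gene of the 8 that was called higher at 24 h than at 6 h in every treatment. Ptgs1 stood at 4.82, 5.62, 4.90 and 3.70 CPM at 24 h with dFz7-21, against 1.25, 1.93, 1.59 and 0.941 CPM at 6 h. With Fz7-21S it stood at 2.03, 5.97, 2.31 and 3.43 CPM at 24 h, against 1.44, 1.22, 1.14 and 0.907 CPM at 6 h, and with DMSO at 3.92, 4.95, 4.09 and 3.05 CPM at 24 h, against 1.60, 1.11, 0.872 and 0.909 CPM at 6 h. The times did not overlap in any treatment, which held in this direction for 30.0% of tested genes with dFz7-21, 25.5% with Fz7-21S and 27.3% with DMSO. The log2 fold changes of 24 h against 6 h were 1.73 ± 0.29 with dFz7-21, 1.54 ± 0.29 with Fz7-21S and 1.82 ± 0.29 with DMSO (edgeR, adjusted p = 1.28e-05, 8.73e-05 and 1.12e-05). Cyclooxygenase 1 is also made by mesenchymal and blood cells. The mesenchymal list summed to 9.47 to 1024 CPM at 24 h and to 7.30 to 9.06 CPM at 6 h with dFz7-21. With Fz7-21S it summed to 6.37 to 9.62 CPM at 24 h and to 4.95 to 8.31 CPM at 6 h, and with DMSO to 6.74 to 8.49 CPM at 24 h and to 7.75 to 218 CPM at 6 h. The immune list summed to 11.8 to 12.8 CPM at 24 h and to 7.86 to 9.34 CPM at 6 h with dFz7-21, to 7.38 to 9.99 CPM at 24 h and to 6.73 to 8.50 CPM at 6 h with Fz7-21S, and to 8.57 to 9.70 CPM at 24 h and to 6.48 to 8.97 CPM at 6 h with DMSO. The rise with dFz7-21 came from Itgam, at 8.97 to 9.40 CPM at 24 h and at most 3.88 CPM at 6 h. Without Itgam, the list with dFz7-21 summed to 2.36 to 3.44 CPM at 24 h and 4.83 to 5.68 CPM at 6 h. With DMSO these 17 genes summed to 3.38 to 4.05 CPM at 24 h and 4.07 to 5.22 CPM at 6 h, also lower. With Fz7-21S they overlapped, at 3.28 to 5.63 CPM at 24 h and 4.29 to 5.29 CPM at 6 h. The part of either list in the Ptgs1 values was not tested.

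Pou2f3, Trpm5 and Avil were lower at 24 h with dFz7-21. Pou2f3 averaged 3.22 ± 0.63 CPM at 24 h and 5.37 ± 0.60 CPM at 6 h with dFz7-21 (SD, n = 4). The times did not overlap, as in 30.7% of tested genes in this direction. The log2 fold change was -0.74 ± 0.17 (edgeR, adjusted p = 0.00071). It was -0.24 ± 0.17 with Fz7-21S and -0.22 ± 0.16 with DMSO, which did not pass. Trpm5 fell with dFz7-21 by 0.38 ± 0.11 on the log2 scale (edgeR, adjusted p = 0.00498), and its values with Fz7-21S and DMSO were -0.25 ± 0.11 (edgeR, adjusted p = 0.0544) and -0.18 ± 0.11. The value with Fz7-21S passed with RLE size factors and without Fz7-21S 24 h replicate 3 (edgeR, adjusted p = 0.0431 and 0.0082). Avil fell with DMSO by 0.64 ± 0.12 (edgeR, adjusted p = 0.000141) and with dFz7-21 by 0.35 ± 0.12 (edgeR, adjusted p = 0.0203). The call of Avil with dFz7-21 was lost when any of 5 libraries was left out, namely dFz7-21 6 h replicates 2 and 4 and dFz7-21 24 h replicates 1, 2 and 3 (edgeR, adjusted p = 0.0518 to 0.0964).

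Dclk1 passed as lower at 24 h with Fz7-21S and Sh2d6 as higher at 24 h with dFz7-21. Dclk1 averaged 5.25 ± 1.85 CPM at 24 h and 9.08 ± 0.85 CPM at 6 h with Fz7-21S, a log2 fold change of -0.78 ± 0.18 (edgeR, adjusted p = 0.000534). With dFz7-21 the value was -0.08 ± 0.17 and with DMSO -0.32 ± 0.17, neither past the threshold. With DMSO the times did not overlap, as in 25.9% of tested genes in this direction, and the value passed when the fit held only the 8 libraries compared (edgeR, adjusted p = 0.0306). Sh2d6 averaged 1.81 ± 0.32 CPM at 24 h and 1.14 ± 0.38 CPM at 6 h with dFz7-21, with overlap, a log2 fold change of 0.67 ± 0.26 (edgeR, adjusted p = 0.0314). That call was lost without dFz7-21 6 h replicate 1 or 3, or without dFz7-21 24 h replicate 2 or 4 (edgeR, adjusted p = 0.058 to 0.109). Whether the time differences themselves differed between treatments was tested for dFz7-21 against DMSO by the interaction term above, which none of the 8 genes passed, and was not tested for Fz7-21S. With dFz7-21, 2 genes rose and 3 fell of the 8 tested, beside 29.8% and 30.1% of all tested genes (59.9% in either direction). With Fz7-21S 1 rose and 1 fell, beside 31.0% and 28.1% (59.1% in all), and with DMSO 1 rose and 1 fell, beside 27.3% and 24.9% (52.2% in all).

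**Figure D4:**
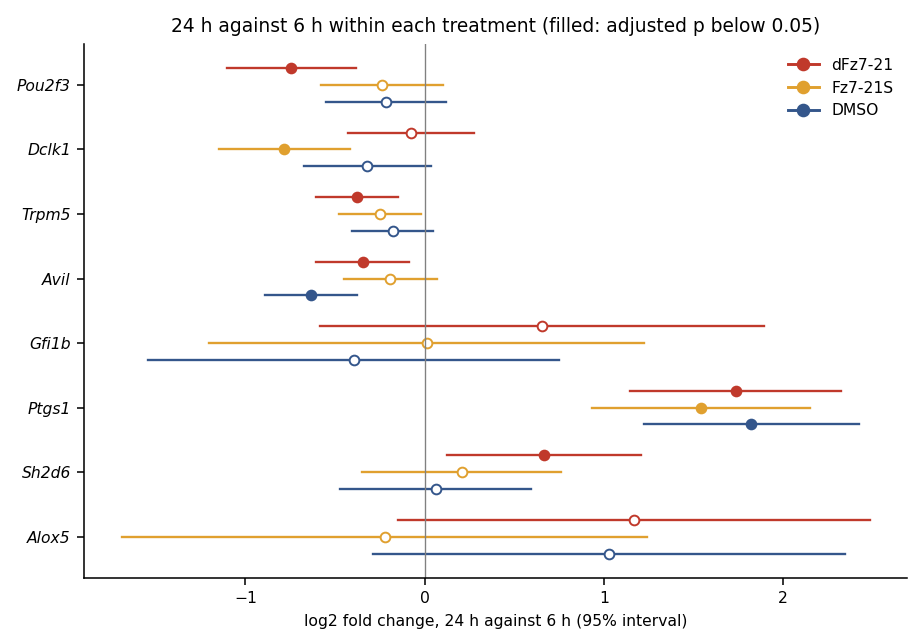
Log2 fold change of 24 h against 6 h (horizontal axis, point and 95% interval, edgeR) of the 8 tested tuft cell genes with dFz7-21 (red), Fz7-21S (yellow) and DMSO (blue). Filled points passed an adjusted p of 0.05, and Ptgs1 lies between 1.54 and 1.82 in all 3 treatments.

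A wider list of 42 other tuft cell genes, 36 of them tested, held more genes that rose than fell at 24 h with dFz7-21. Against DMSO 5 rose and 1 fell, beside 18.2% of all tested genes called higher and 17.7% called lower, with a median log2 fold change of 0.16 over the 36 and -0.01 over all tested genes. Against Fz7-21S 8 rose and 0 fell, beside 16.5% and 17.2%, with a median of 0.15 over the 36 and -0.01 over all tested genes. An unadjusted p under 0.05 against Fz7-21S was seen for 12 of the 36, beside 6707 of 15429 tested genes. The 5 that rose against DMSO were among the 8 that rose against Fz7-21S, and both comparisons share the dFz7-21 libraries. The count against Fz7-21S was 2 when the fit held only the 8 libraries compared. The share of the 36 that rose was below that of all tested genes against DMSO and above it against Fz7-21S. Of the 8 that averaged above 15 CPM, 2 rose against DMSO and 3 against Fz7-21S. Of the other 28, 3 rose against DMSO and 5 against Fz7-21S.

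Gnat3, the gustducin subunit of taste transduction, was the gene of the wider list with the highest fold change. It had 56 reads over the 4 dFz7-21 libraries, 19 with Fz7-21S and 12 with DMSO at 24 h, a log2 fold change against DMSO of 2.46 ± 0.65 (edgeR, adjusted p = 0.00473). Gnat3 had 0 to 19 reads per library over all 24, with 5 libraries at the floor of 3 counts or below it. Inpp5j, an inositol phosphatase, averaged 50.8 ± 2.14 CPM with dFz7-21, 37.4 ± 2.38 CPM with Fz7-21S and 36.5 ± 4.003 CPM with DMSO, 0.48 ± 0.07 against DMSO (edgeR, adjusted p = 1.92e-05). Pik3r5, a subunit of phosphoinositide 3-kinase gamma, averaged 7.57 ± 1.06 CPM with dFz7-21, 4.83 ± 0.57 CPM with Fz7-21S and 5.52 ± 0.34 CPM with DMSO, 0.45 ± 0.11 against DMSO (edgeR, adjusted p = 0.00345). The phosphatase Ptpn6 rose by 0.30 ± 0.08 and the ETS factor Spib by 0.49 ± 0.16 against DMSO (edgeR, adjusted p = 0.0045 and 0.0207). Ptpn6, Pik3r5 and Spib are also genes of blood cells. The immune list summed to 11.8 to 12.8 CPM with dFz7-21, to 7.38 to 9.99 CPM with Fz7-21S and to 8.57 to 9.70 CPM with DMSO at 24 h, and its part in these values was not tested. The rise of that sum came from Itgam, at 8.97 to 9.40 CPM with dFz7-21, 2.91 to 6.23 CPM with Fz7-21S and 4.52 to 6.01 CPM with DMSO. The other 17 immune genes summed to 2.36 to 3.44 CPM with dFz7-21, to 3.28 to 5.63 CPM with Fz7-21S and to 3.38 to 4.05 CPM with DMSO. The genes that passed against Fz7-21S alone were Kctd12 at 0.43 ± 0.10, Plcb2, the phospholipase of taste transduction, at 0.81 ± 0.27 and the adaptor Fyb at 0.54 ± 0.16 (edgeR, adjusted p = 0.00209, 0.0227 and 0.0109).

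Hpgds, the haematopoietic prostaglandin D synthase, was the 1 of the 36 that fell against DMSO at 24 h, and it is named because of that result. It stood at 1.09 ± 0.26 CPM with dFz7-21, 1.62 ± 0.42 CPM with Fz7-21S and 1.94 ± 0.31 CPM with DMSO (SD, n = 4), without overlap between dFz7-21 and DMSO. Such a lack of overlap held in this direction for 19.0% of tested genes. The log2 fold change of Hpgds was -0.83 ± 0.22 against DMSO (edgeR, adjusted p = 0.00537) and -0.56 ± 0.23 against Fz7-21S (edgeR, adjusted p = 0.0593). At 6 h it stood at 4.34 ± 0.77 CPM with dFz7-21 and 3.58 ± 0.75 CPM with DMSO, and the change of the difference from 6 h to 24 h was -1.11 on the log2 scale, which passed the interaction test (edgeR, adjusted p = 0.0136) and did so in all 22 alternatives. That of Gnat3 was 2.65 and barely passed (edgeR, adjusted p = 0.0496), and its call was lost in 18 of 22 alternatives (adjusted p = 0.0588 to 0.2), among them the replicate block, no filter on low counts and the fit without the 3 mesenchymal libraries.

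At 6 h, 2 genes of the wider list were called against DMSO, Il4ra and Il13ra1. Il4ra, a shared receptor chain for IL-4 and IL-13, averaged 76.3 ± 1.83 CPM with dFz7-21, 65.6 ± 4.09 CPM with Fz7-21S and 62.3 ± 5.65 CPM with DMSO, without overlap between dFz7-21 and either. Such a lack of overlap held in this direction for 13.7% of tested genes against DMSO and 11.1% against Fz7-21S. The log2 fold change of Il4ra was 0.29 ± 0.06 against DMSO and 0.22 ± 0.06 against Fz7-21S (edgeR, adjusted p = 0.00289 and 0.0395). Il13ra1, the partner chain, also rose in both, and Inpp5j rose against Fz7-21S. The counts were 2 higher and 0 lower of 36 against DMSO, beside 6.05% and 5.0% of all tested genes, and 3 higher and 0 lower against Fz7-21S, beside 3.21% and 3.83%. The share against DMSO was near that of all genes, and without the 3 mesenchymal libraries the count was 0. Of the 36, 8 averaged above 15 CPM, and these 8 held both genes that rose against DMSO at 6 h and all 3 that rose against Fz7-21S. The lineage regulator Pou2f3 averaged 7.53 CPM in its highest group. Over all libraries Il13ra1 averaged 97.0 CPM, Il4ra 50.7 CPM and Inpp5j 32.9 CPM, against 5.88 CPM for Pou2f3. Which cells these transcripts came from was not tested at either time.

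Il17rb, Alox5ap, Rgs13 and Gng13 did not pass with dFz7-21 at 24 h. The IL-25 receptor chain Il17rb averaged 1.76 ± 0.57 CPM with dFz7-21, 1.65 ± 0.54 CPM with Fz7-21S and 1.19 ± 0.78 CPM with DMSO. Alox5ap, the protein that presents substrate to 5-lipoxygenase, averaged 1.42 ± 0.41 CPM with dFz7-21, 1.22 ± 0.22 CPM with Fz7-21S and 1.01 ± 0.15 CPM with DMSO. Rgs13, a regulator of G protein signalling, averaged 3.57 ± 0.72 CPM with dFz7-21, 3.63 ± 0.92 CPM with Fz7-21S and 4.17 ± 0.80 CPM with DMSO. The G protein subunit Gng13 averaged 2.03 ± 0.46 CPM with dFz7-21, 2.15 ± 0.58 CPM with Fz7-21S and 1.67 ± 0.14 CPM with DMSO. Chat, which makes acetylcholine, had 8 reads with dFz7-21, 2 with Fz7-21S and 7 with DMSO at 24 h. The succinate receptor Sucnr1 had 18 reads with dFz7-21, 9 with Fz7-21S and 6 with DMSO, and neither gene had enough for a test. Over time the wider list held 6 that rose and 6 that fell with dFz7-21, beside 29.8% and 30.1% of all tested genes, 6 and 13 with Fz7-21S, beside 31.0% and 28.1%, and 2 and 13 with DMSO, beside 27.3% and 24.9%.

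**Figure D5:**
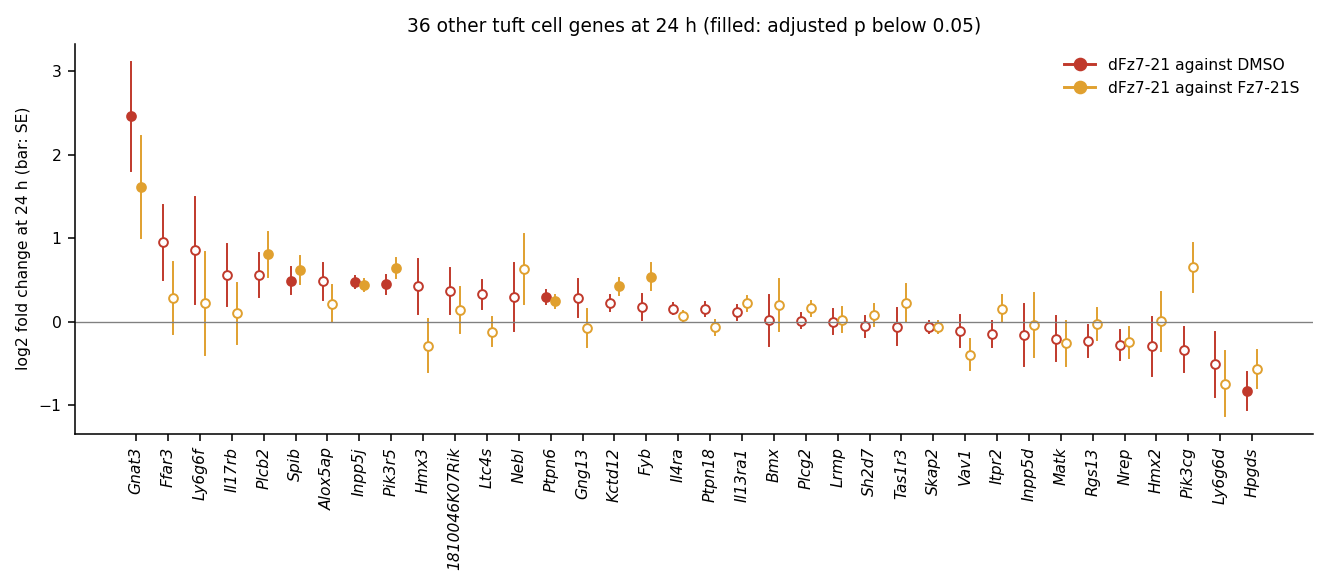
Log2 fold change at 24 h (vertical axis, point and SE, edgeR) of the 36 tested genes of the wider tuft cell list, ordered by the value against DMSO, for dFz7-21 against DMSO (red) and against Fz7-21S (yellow). Filled points passed an adjusted p of 0.05, with Gnat3 at 2.46 and Hpgds at -0.83 at the ends against DMSO.

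The tuft cell genes did not vary as a block from library to library. Over 24 libraries with each group's mean removed, Pearson's r of the 28 pairs among the 8 tested genes ran from -0.53 to 0.50 with a median of 0.05, a description of libraries that share depth and low counts. The genes most like the mean of the 8 within groups were Taf6 (r = 0.82), Foxp4 (0.79), Rhobtb2 (0.78), Ptbp1 (0.77) and Mapkapk3 (0.77). Over the 6 group means they were Mir1901 and Tbx15 (r = 0.95 each), Ephb6 and Slc35a3 (0.93 each) and Pde8a (0.92). None of the 10 is on the wider tuft cell list. That list held only 36 of the 15429 tested genes, so the absence says little. The r values are the highest among named tested genes other than the 8, and those over group means rest on 6 points.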

How the data were processed

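Polyadenylated RNA was prepared from 24 organoid samples (RNeasy Micro kit in the labels' protocols), and the sample titles gave each group and replicate number. The authors deposited, for each sample and gene, a count of uniquely aligned reads and an RPKM adjusted by a size factor, per the file headers. Alignment used GSNAP and GRCm38, per the submitters' processing notes. Neither the annotation nor strand handling was given in the sources used here, so reads from antisense genes cannot be separated. The deposited RPKM set the order of genes per length and entered no test.

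Counts were tested with edgeR 4.0.16 in R 4.3.3 (robust quasi-likelihood F test, TMM factors, filterByExpr on the 6 groups with its minimum of 10 reads), in 1 fit of all 24 libraries. Benjamini-Hochberg adjustment ran over 15429 genes, with calls made below 0.05. Levels are mean ± SD of TMM-normalised CPM with n = 4, and log2 fold changes are ± SE. The steps were tested on simulated data. Symbols came from RefSeq for 31049 of 36528 identifiers and from GENCODE for 78. The counts overlap few other models: lncRNA models within Dclk1 had 0 reads.

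The 9 genes and all lists were chosen with earlier results of these data known. Named are the 9 genes, those of the wider list called in a comparison of dFz7-21 (at most the 8 with the smallest p), 7 tuft cell genes whatever their result, Lgr5 and marker genes of other cells, and the 5 genes most alike in pattern. Fyb, Plcb2, Il13ra1 and Hpgds were named after their values were seen. A gene of the wider list is not reported here and enters none of its counts. Samples with the same replicate number did not as a rule deviate together (correlations -0.35 to 0.37, with 12 of 36 over 0.1). Between dFz7-21 and Fz7-21S all 4 correlations were over 0.1 at 24 h (0.12 to 0.30), and those at 6 h were 0.07 to 0.23. Alternatives were RLE size factors, no filter, a replicate block, only the 8 libraries compared, DESeq2 1.42.0, each library left out, and, added after seeing the data, leaving out the 3 mesenchymal libraries or the 2 that stood apart at 24 h.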

Additional observations from a re-analysis of the deposited data

Results flagged for a closer look

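In groups of 4 libraries, 7 of 54 groups of the 9 tuft cell genes and 5 of 84 groups of the named genes of the wider list held a library whose gap to its neighbour exceeded Dixon's critical value at the 95% level. Chance gives about 1 in 20. The values of Il25 with dFz7-21 at 24 h (0 reads against 1 in each of the other 3 libraries) and of Chat with Fz7-21S at 24 h (2 reads against 0) lie within the floor of 3 counts and say nothing of a library. At 24 h DMSO replicate 2 was the library apart for Pou2f3 at 3.62 CPM and for Alox5 at 1.71 CPM. Fz7-21S 24 h replicate 2 was apart for Avil at 6.23 CPM in a narrow group, and Fz7-21S 24 h replicate 3 for Alox5 at 0.615 CPM and for Chat at 0.0723 CPM. With dFz7-21 at 24 h, replicate 2 was apart for Il25 at 0 CPM, replicate 3 for Spib at 3.72 CPM and replicate 4 for Alox5ap at 2.03 CPM. At 6 h the libraries apart were Fz7-21S replicate 4 for Pik3r5 at 6.28 CPM, and DMSO replicate 1 for Il25 at 0.214 CPM, replicate 3 for Inpp5j at 20.6 CPM and replicate 4 for Avil at 10.4 CPM.

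The difference of dFz7-21 from DMSO changed between 6 h and 24 h for 2 genes of the wider list by the edgeR interaction term. The change was 2.65 on the log2 scale for Gnat3 (adjusted p = 0.0496) and -1.11 for Hpgds (adjusted p = 0.0136). The call of Gnat3 was lost in 18 of 22 alternatives, the replicate block among them, and that of Hpgds in 0.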

How the results depend on the processing

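Over all alternatives, 1212 of 1237 values of single tuft cell genes kept their side of the threshold and, where called, their sign. Of the rest, 11 lost and 14 gained a call, none reversed, and 76 uncalled values changed sign. Pou2f3 at 24 h against DMSO passed in all 15 alternatives. The number of tuft cell genes called against DMSO at 6 h was 1 with only the 8 libraries compared, without the 2 libraries that stood apart and with DESeq2 (0 in the reported fit). Against Fz7-21S it was 1 at 24 h with only 8 libraries (2 in the reported fit), and 1 at 6 h with only 8 libraries and without the 2 libraries apart (0 in the reported fit). The interaction had 1 without the 2 libraries apart (0 in the reported fit). Leaving out 1 library at a time gave 1 to 1 against DMSO at 24 h, 0 to 0 at 6 h, 2 to 3 and 0 to 0 against Fz7-21S, 0 to 0 at either time for Fz7-21S against DMSO, 3 to 4, 2 to 3 and 2 to 2 over time with dFz7-21, Fz7-21S and DMSO, and 0 to 1 for the interaction. The fit with a replicate block changed no call of the 9 tuft cell genes, with counts of 1, 0, 2, 0, 0, 0, 5, 2, 2 and 0 in the order used here.

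Over all genes, the count against DMSO at 6 h was 1704, but 3640 with only 8 libraries, 698 without the 3 mesenchymal libraries and 3280 without the 2 apart. Against Fz7-21S it was 5202 at 24 h, but 2305 with only 8 libraries, and 1086 at 6 h, but 3159 with only 8 libraries and 2381 without the 2 apart. Fz7-21S against DMSO at 24 h gave 40, but 0 with only 8 libraries, 121 with DESeq2 and 22 to 1390 with a library left out. The cause of these shifts was not tested. Depth limits Gfi1b, Alox5 and Il25, whose counts lie near the floor, and likewise Gnat3 of the wider list.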
